A study of Mus musculus with 8 samples.

Results

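Immediate early genes and heat shock genes were followed in sorted splenic CD4 T cells of mice with and without the aryl hydrocarbon receptor. The set was chosen by name and holds 31 genes, 22 of the immediate early response and 9 encoding heat shock proteins and their partners. All 31 were measured by a probe set annotated to that gene alone, out of 12393 genes so measured, and each is given by the probe set with the highest mean over the 8 arrays.

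The study asked how loss of the receptor and a dose of its ligand TCDD (2,3,7,8-tetrachlorodibenzo-p-dioxin) alter transcription in these cells. The 8 arrays formed 4 groups of 2, and each array carried amplified RNA pooled from 4 animals. All animals were female and 8 to 12 weeks old. Wild type (WT) mice were C57BL/6, and knockout (KO) mice carried the AHR ko allele backcrossed to C57BL/6. The labels name no Cre or cell type for the deletion. The TCDD groups received 10 µg/kg by intraperitoneal injection in corn oil, the DMSO groups received DMSO in corn oil, and all were killed 24 h later. The groups are KO DMSO, KO TCDD, WT DMSO and WT TCDD. The title and strain of WT TCDD replicate 1 name the wild type while its free-text description names the knockout, and it was analysed as WT.

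Immediate early genes are transcribed within minutes of a stimulus by factors already present in the cell. Many encode transcription factors, such as the AP-1, EGR, NR4A and KLF proteins, and others encode phosphatases, RNA-decay factors and inhibitors that end the signal. Heat shock genes encode chaperones that are induced through the factor HSF1 when proteins unfold. In T cells both groups respond to antigen receptor signals and to the handling of tissue, and the Ah receptor itself is held in the cytosol in a complex with Hsp90.

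The labelled cell type was checked against its markers. Cd3e, a chain of the T cell receptor complex, lay between 9.11 and 9.64 on the log2 scale over the 8 arrays, and Cd4 between 8.06 and 8.73. Of 10 measured markers of B and plasma cells, 3 stayed below the median probe set level of 6.13 on every array (among them Cd79a) and 4 above it on every array, such as Cd22 at 7.23 to 7.89. Of 10 NK and CD8 markers, 3 stayed below it (among them Cd8a) and 6 above it, such as Klrd1 at 7.95 to 9.31. These markers were chosen as examples after their values were seen. Of 16 measured myeloid and dendritic markers, 8 were higher in KO by the limma test given below, against 1.59% of all probe sets. By sign alone 14 were higher and 2 lower, down to -0.65. The mean level of the 16 was 7.67 to 8.01 on KO arrays and 6.64 to 6.79 on WT arrays. Of the other lists, 1 T cell marker of 10 (Cd6), 2 NK and CD8 markers of 10, 0 B cell markers of 10 and 0 erythroid and platelet markers of 7 passed the test, and none was lower. Fewer cells of a type and less RNA per cell cannot be told apart in such sorted bulk samples. The 3′ minus 5′ difference of the actin control probe sets, a sign of RNA length, had a KO mean of 3.66 ± 0.15 and a WT mean of 3.62 ± 0.71 (± SD over 4 arrays; two-sided exact permutation p = 0.914). On single arrays it was lowest on WT DMSO replicate 2 at 2.90 and WT TCDD replicate 2 at 3.30, and highest on WT TCDD replicate 1 at 4.56.

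None of the 31 genes passed the test between KO and WT by its brightest probe set. The test was limma with Benjamini-Hochberg adjustment over 22626 probe sets at a threshold of 0.05, with 4 KO arrays against 4 WT arrays. It called 2.79% of all probe sets, 1.59% higher and 1.20% lower in KO. With 1 probe set per gene it called 236 of 12393 genes higher and 165 lower. At an unadjusted p under 0.05 there were 8 genes, against 20.5% of all probe sets: Atf3, Ppp1r15a, Ier2, Ier3, Ier5 and Hspa8 with the higher mean in KO (9.19% of all probe sets), and Hspe1 and Dnaja1 with the lower mean (11.3%). With 1 probe set per gene 2750 of 12393 genes reached that p, 1309 higher and 1441 lower in KO. The median difference of the 31 genes was 0.01, equal to that of all 12393 genes. The 22 immediate early genes had a median difference of 0.10, with 15 positive and 7 negative. The 9 heat shock genes had a median of -0.16, with Hspa8 positive and 8 negative. The plot shows these differences with their intervals, most of which include 0. Signs also depended on the probe set. Of the 25 further probe sets of the 31 genes, 18 had the sign of their gene's brightest. Those that did not included Dnajb1 1416756_at (0.18), Hsph1 1423566_a_at (0.12), Btg2 1448272_at (-0.18) and Ier5 1460009_at (-0.21).

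**Figure D1:**
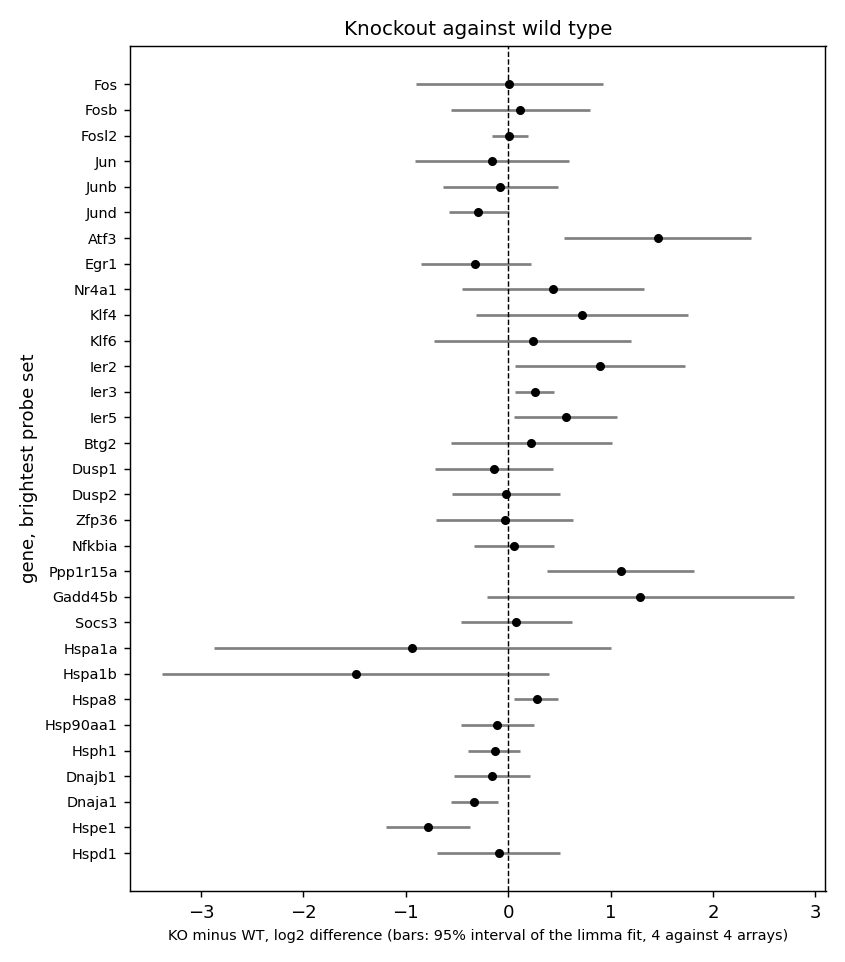
KO minus WT difference on the log2 scale for each of the 31 genes by its brightest probe set, with the 95% interval of the limma fit (4 arrays in each genotype), grouped by role. Atf3 at 1.46 and Hspa1b at -1.49 lie farthest from 0, and the intervals of most genes include 0.

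Many of the immediate early genes spanned a wide range within a genotype. Over the 4 WT arrays, 14 of the 22 (63.6%) spanned 1 or more on the log2 scale, against 7.93% of all genes. Over the 4 KO arrays 8 of the 22 (36.4%) did so, against 4.35% of all genes. The median span was 1.27 in WT and 0.78 in KO, where that of all genes was 0.36 in both.

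These spans did not come from the same array in every gene. Within WT DMSO, replicate 2 was lower than replicate 1 by 1 or more in 10 of the 22 genes: Atf3, Egr1, Nr4a1, Klf4, Klf6, Ier2, Btg2, Dusp1, Ppp1r15a and Gadd45b. Of all genes, 0.613% were lower by as much. Within WT TCDD, Gadd45b alone of the 22 was lower by 1 or more in replicate 2 (1.11% of all genes), while Fos, Jun, Dusp2 and Zfp36 were higher by 1 or more (3.66%). Both WT arrays numbered 2 lay below the 6 other arrays in 10 of the 22 genes (45.5%), against 11.7% of all genes. These were Fosl2, Atf3, Nr4a1, Klf4, Ier2, Ier3, Btg2, Nfkbia, Ppp1r15a and Gadd45b. These 2 arrays also stood apart from the other 6 over the whole profile. On the first principal component, which held 52.1% of the variance, they scored 49.2 and 40.4 and the others between -36.2 and 9.10. The same arrays had the lowest actin 3′ minus 5′ values, and the array on which Fos and Jun were lowest had the highest. The part of RNA length, or of the profile-wide difference, in this spread was not tested.

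**Figure D2:**
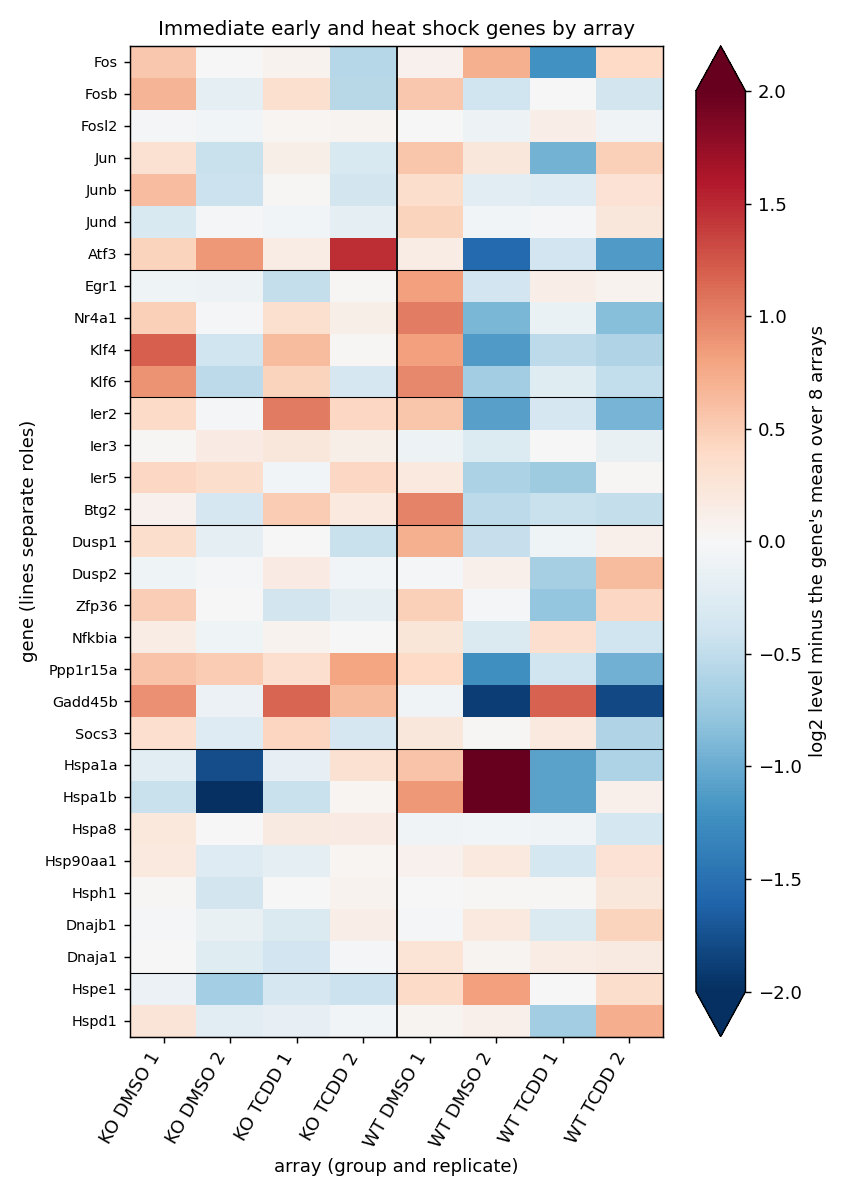
Heat map of the 31 genes by array, each value minus the gene's mean over the 8 arrays on the log2 scale, with colours capped at 2 in either direction and genes ordered by role. Genes such as Atf3, Ppp1r15a and Gadd45b are low on the WT arrays numbered 2, Fos and Jun are low on WT TCDD replicate 1, and Hspa1a and Hspa1b are highest on WT DMSO replicate 2.

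The AP-1 factors Fos, Fosb, Fosl2, Jun, Junb and Jund pair with each other to bind AP-1 sites, and Atf3 is a stress-induced member of the same leucine zipper class. The bases upstream of the start sites of Fos and Atf3 are shown because the genes were low on different arrays while both windows hold TGACG, the core of the cAMP response element (CRE). They are the 250 bases before the RefSeq start in GRCm38.p6, 5′ to 3′ on the gene's strand, with TGACG or its reverse complement CGTCA in capitals.
Fos, chr12:85473640-85473889, plus strand: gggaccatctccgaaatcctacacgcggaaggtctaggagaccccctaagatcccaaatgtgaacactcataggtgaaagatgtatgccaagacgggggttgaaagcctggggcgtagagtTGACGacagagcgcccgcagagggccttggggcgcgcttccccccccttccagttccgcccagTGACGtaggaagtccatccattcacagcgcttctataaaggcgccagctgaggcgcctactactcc
Atf3, chr1:191183334-191183583, minus strand: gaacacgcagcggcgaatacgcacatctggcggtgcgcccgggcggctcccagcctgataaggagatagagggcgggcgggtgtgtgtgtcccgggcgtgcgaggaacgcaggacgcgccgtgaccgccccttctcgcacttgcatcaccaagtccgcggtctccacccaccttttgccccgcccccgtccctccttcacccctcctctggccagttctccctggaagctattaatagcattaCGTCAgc
In Fos the TGACG copies begin 129 and 66 bases before the start, and in Atf3 the copy lies 7 to 3 bases before it. Of 27025 promoters of that length, 17.9% hold TGACG on either strand, as do 11 of the 27 genes of the set that had an entry (40.7%).

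Fos read 12.11 and 11.56 in KO DMSO, 11.63 and 10.99 in KO TCDD, 11.65 and 12.27 in WT DMSO, and 10.36 and 11.96 in WT TCDD (replicates 1 and 2, as in all such lists). The WT values enclosed those of KO, and WT TCDD replicate 1 was the lowest array. The KO mean was 11.57 ± 0.46 and the WT mean 11.56 ± 0.84 (SD, n = 4 each), a difference of 0.01 (SE 0.40, limma adjusted p = 0.990).

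Jun, the main partner of Fos, read 11.40 and 10.64 in KO DMSO, 11.21 and 10.79 in KO TCDD, 11.65 and 11.32 in WT DMSO, and 10.15 and 11.56 in WT TCDD. As for Fos, the lowest array was WT TCDD replicate 1, and the genotypes overlapped. The difference was -0.16 (SE 0.33, limma adjusted p = 0.838). The dimmer Jun probe set, 1448694_at, did not share that array: it was lowest on WT TCDD replicate 2 at 8.45, read 9.21 on WT TCDD replicate 1 and differed by 0.19. Jund, the family member that is expressed without a stimulus, had a KO mean of 9.74 ± 0.13 and a WT mean of 10.03 ± 0.24 (SD, n = 4 each), a difference of -0.29 (limma adjusted p = 0.254). The other 3 AP-1 genes differed by 0.12 (Fosb), 0.01 (Fosl2) and -0.08 (Junb), all with overlapping arrays.

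Atf3 had the highest KO minus WT difference of the 31 genes. It read 8.73 and 9.14 in KO DMSO, 8.42 and 9.75 in KO TCDD, 8.42 and 6.73 in WT DMSO, and 7.90 and 7.14 in WT TCDD. The lowest KO array and the highest WT array both read 8.42, and the remaining WT arrays were lower than every KO array. The KO mean was 9.01 ± 0.57 and the WT mean 7.55 ± 0.76 (SD, n = 4 each). The difference of 1.46 (SE 0.40, 95% interval 0.55 to 2.37), 2.76-fold, did not pass (limma adjusted p = 0.0885). Without both WT arrays numbered 2 it was 0.85 (adjusted p = 0.352). With the actin 3′ minus 5′ value as a covariate it was 1.43 and passed (limma adjusted p = 0.0437). That fit called 8.11% of all probe sets, against 2.79% without the covariate. Myeloid cells also express Atf3, and the part of the higher myeloid markers in KO in its difference was not tested.

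Among the other immediate early transcription factors, Egr1, a zinc finger factor induced through the serum response factor, had a KO mean of 10.86 ± 0.21 and a WT mean of 11.18 ± 0.50 (SD, n = 4 each), a difference of -0.32 (limma adjusted p = 0.506). Nr4a1, an orphan nuclear receptor induced by T cell receptor signals, read 10.82 and 10.29 in KO DMSO, 10.66 and 10.45 in KO TCDD, 11.36 and 9.42 in WT DMSO, and 10.20 and 9.49 in WT TCDD. The WT arrays numbered 2 were its lowest and WT DMSO replicate 1 its highest, so that WT spanned 1.94 and enclosed all of KO. The difference was 0.44 (limma adjusted p = 0.591).

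Klf4, a factor linked to T cell quiescence, read 9.97 and 8.38 in KO DMSO, 9.40 and 8.79 in KO TCDD, 9.59 and 7.64 in WT DMSO, and 8.25 and 8.17 in WT TCDD. Its values overlapped between genotypes, and both DMSO groups had a far lower second replicate. The difference was 0.72 (SE 0.46, limma adjusted p = 0.424), or 0.22 without both WT arrays numbered 2. Klf6 differed by 0.24 (limma adjusted p = 0.801) and spanned 1.43 in KO and 1.66 in WT. Its other probe sets differed more, 1427742_a_at by 1.01 (SE 0.37, limma adjusted p = 0.173) and 1418280_at by 0.33.

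Ier2, Ier3 and Ier5 are named for their immediate early induction. Ier2 read 11.13 and 10.72 in KO DMSO, 11.79 and 11.16 in KO TCDD, 11.31 and 9.66 in WT DMSO, and 10.41 and 9.82 in WT TCDD. Apart from WT DMSO replicate 1, the WT arrays lay below every KO array, and the difference was 0.90 (SE 0.37, limma adjusted p = 0.209), or 0.34 without both WT arrays numbered 2. Ier5 differed by 0.56 (limma adjusted p = 0.193). Ier3 was the only one of the 31 genes with a mean below the median probe set level. Its KO arrays (5.57 to 5.77) lay above its WT arrays (5.28 to 5.55), with a difference of 0.26 (limma adjusted p = 0.123). Btg2, an antiproliferative protein that promotes mRNA decay, differed by 0.22 (limma adjusted p = 0.775), and WT DMSO replicate 1 at 11.62 stood above its other WT arrays.

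The inhibitors that end signals differed among themselves. Dusp1 and Dusp2 are phosphatases that switch off MAP kinases, and Zfp36 (tristetraprolin) binds cytokine mRNAs and speeds their decay. Their differences were -0.14, -0.02 and -0.03, with limma adjusted p-values of 0.816, 0.978 and 0.967. Dusp2 read 8.80 and 8.85 in KO DMSO, 9.05 and 8.83 in KO TCDD, 8.86 and 8.99 in WT DMSO, and 8.23 and 9.52 in WT TCDD. The KO arrays lay within 0.25 of each other, while the lowest and highest values were both in WT TCDD. Socs3, an inhibitor of cytokine receptor signalling through STAT3, differed by 0.08 (limma adjusted p = 0.886).

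Ppp1r15a (GADD34) directs a phosphatase to eIF2α and restores translation after stress. It read 10.76 and 10.70 in KO DMSO, 10.53 and 10.98 in KO TCDD, 10.59 and 8.97 in WT DMSO, and 9.80 and 9.23 in WT TCDD. The KO arrays were close together, WT DMSO replicate 1 fell among them, and the 3 remaining WT arrays were lower. The KO mean was 10.74 ± 0.19 and the WT mean 9.65 ± 0.72 (SD, n = 4 each). The difference of 1.10 (SE 0.31, 95% interval 0.38 to 1.81), 2.14-fold, did not pass (limma adjusted p = 0.0981). It passed without WT DMSO replicate 1, at 1.41 (limma adjusted p = 0.0262), and was 0.55 without both WT arrays numbered 2 (adjusted p = 0.344). Its RefSeq window holds the full CRE, TGACGTCA, 12 to 5 bases before the start. That motif is in 1.62% of all promoters and in 3 of the 27 genes (Btg2, Dusp1 and Ppp1r15a), and TGACG lies within it.

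Gadd45b, a stress and cytokine-induced activator of p38 signalling, read 10.04 and 9.01 in KO DMSO, 10.29 and 9.76 in KO TCDD, 9.06 and 7.24 in WT DMSO, and 10.31 and 7.33 in WT TCDD. Its WT span of 3.07 was the widest of the 22 immediate early genes. The WT arrays numbered 2 lay below every KO array, while WT TCDD replicate 1 was the highest of all. The KO mean was 9.78 ± 0.55 and the WT mean 8.49 ± 1.48 (SD, n = 4 each), and the difference was 1.29 (SE 0.66, limma adjusted p = 0.319). Without both WT arrays numbered 2 it was 0.09 (limma adjusted p = 0.955). The other probe sets of Gadd45b differed by 0.36 (1450971_at, SE 0.11, limma adjusted p = 0.130) and 0.14 (1420197_at). On 1450971_at the KO arrays read 7.31 to 7.61 and the WT arrays 6.93 to 7.37.

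**Figure D3:**
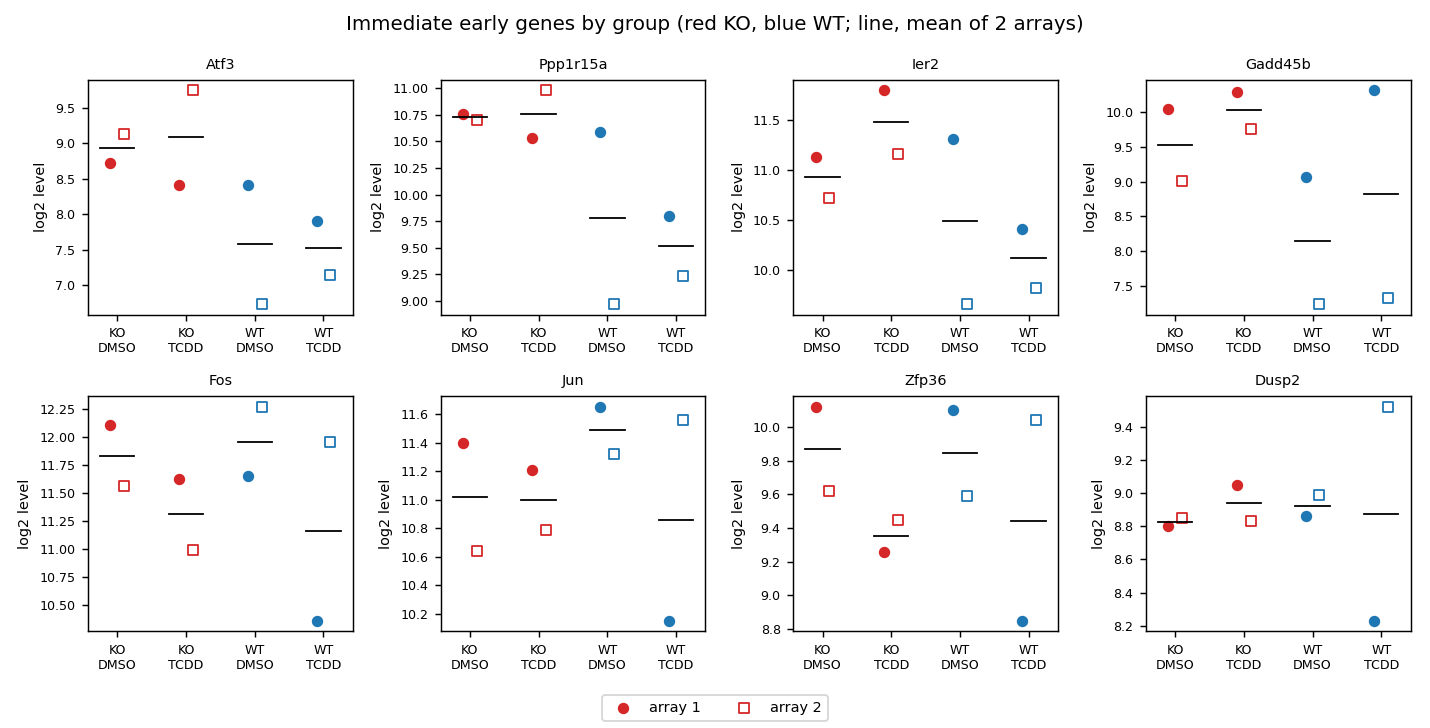
Log2 values of 8 immediate early genes by group, with replicate 1 as a filled circle, replicate 2 as an open square and the mean of the 2 arrays as a line. By the brightest probe set of each gene, in Atf3, Ppp1r15a, Ier2 and Gadd45b the WT arrays numbered 2 are the lowest points, whereas in Fos, Jun, Zfp36 and Dusp2 the lowest point is WT TCDD replicate 1.

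Nfkbia encodes IκBα, which holds NF-κB in the cytosol and is itself induced by it. Its probe sets disagreed. The brightest, 1420088_at, read between 12.24 and 12.98 on all arrays and differed by 0.06 (limma adjusted p = 0.879). The second brightest, 1448306_at, read 11.51 and 11.14 in KO DMSO, 11.85 and 11.52 in KO TCDD, 10.60 and 9.15 in WT DMSO, and 10.66 and 9.47 in WT TCDD. On that probe set every KO array lay above every WT array. The difference was 1.54 (SE 0.35), 2.90-fold, and missed the threshold (limma adjusted p = 0.0559). The remaining probe sets, 1449731_s_at and 1420089_at, differed by 0.27 and 0.13. The position of each probe set in the transcript was not analysed here.

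Hspa1a and Hspa1b encode the inducible Hsp70 and are near-identical neighbouring genes. Their upstream windows are shown because the 2 genes had the same highest array and because probe sets of one can take signal from the other. They are the 250 bases before the RefSeq start in GRCm38.p6, with the inverted heat shock unit pair GAANNTTC in capitals.
Hspa1a, chr17:34972157-34972406, minus strand: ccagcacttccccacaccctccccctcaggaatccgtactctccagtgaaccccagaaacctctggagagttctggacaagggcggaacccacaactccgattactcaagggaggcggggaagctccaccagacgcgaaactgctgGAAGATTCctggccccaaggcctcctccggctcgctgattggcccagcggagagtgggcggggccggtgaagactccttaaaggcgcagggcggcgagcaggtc
Hspa1b, chr17:34959239-34959488, minus strand: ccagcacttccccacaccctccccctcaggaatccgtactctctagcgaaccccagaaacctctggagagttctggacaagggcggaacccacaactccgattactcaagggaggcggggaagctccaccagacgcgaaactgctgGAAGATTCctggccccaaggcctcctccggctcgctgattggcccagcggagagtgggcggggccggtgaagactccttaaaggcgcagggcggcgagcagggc
The windows are identical at 247 of 250 positions (98.8%), and the pair lies 104 to 97 bases before each start. GAANNTTC, searched on both strands, is in 6.78% of 27025 promoters and in 6 of the 27 genes (22.2%): Dnaja1, Fosl2, Hspa1a, Hspa1b, Hspe1 and Jun.

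Hspa1b had the lowest difference of the set. It read 8.52 and 6.85 in KO DMSO, 8.52 and 9.0 in KO TCDD, 9.83 and 12.05 in WT DMSO, and 7.90 and 9.07 in WT TCDD. WT DMSO held the 2 highest arrays, and the rest overlapped. The KO mean was 8.22 ± 0.94 and the WT mean 9.71 ± 1.75 (SD, n = 4 each), a difference of -1.49 (SE 0.83, limma adjusted p = 0.362). Hspa1a read 6.79 and 5.24 in KO DMSO, 6.85 and 7.32 in KO TCDD, 7.59 and 10.01 in WT DMSO, and 5.94 and 6.40 in WT TCDD. It was likewise highest on WT DMSO replicate 2, and its difference was -0.94 (SE 0.85, limma adjusted p = 0.597). Without that array the KO minus WT differences were -0.71 for Hspa1b and -0.09 for Hspa1a. The other Hspa1b probe sets, 1427127_x_at and 1427126_at, reached 11.01 and 10.43 on WT DMSO replicate 2 and differed by -1.83 and -1.89 between genotypes, also without passing (limma adjusted p = 0.294 and 0.319).

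**Figure D4:**
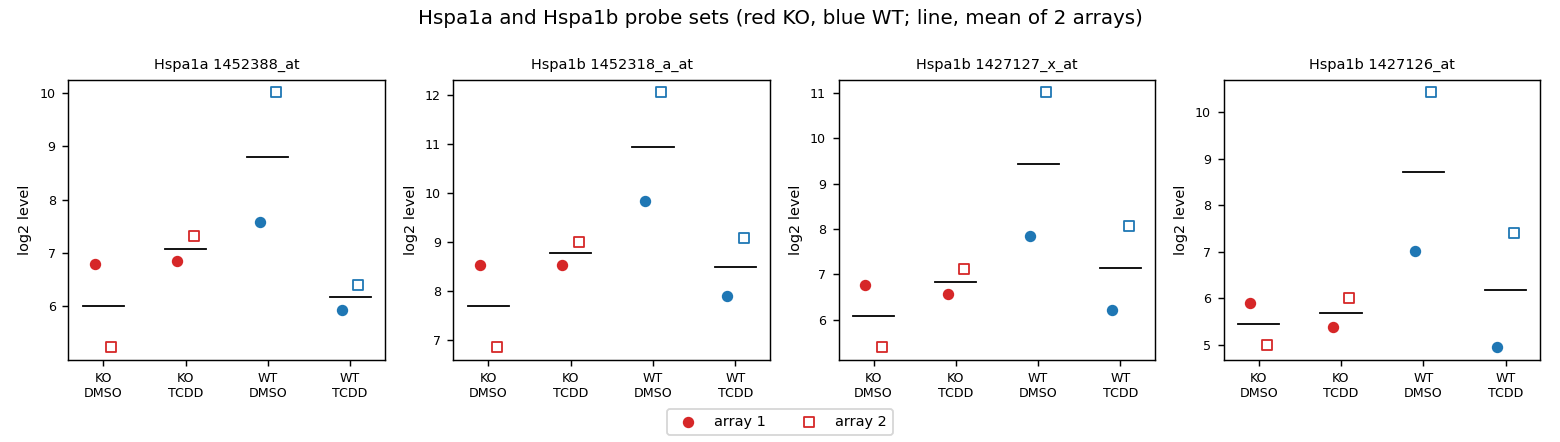
Log2 values of the 4 probe sets of Hspa1a and Hspa1b by group, with each array as a point and the mean of the 2 arrays as a line. All 4 have their highest value on WT DMSO replicate 2, between 10.01 and 12.05.

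By their brightest probe sets the other cytosolic chaperones varied less. Hspa8, the constitutive Hsc70, read 12.96 and 12.73 in KO DMSO, 12.93 and 12.91 in KO TCDD, 12.67 and 12.69 in WT DMSO, and 12.67 and 12.40 in WT TCDD. Every KO array was above every WT array, by a difference of 0.28 (SE 0.09, limma adjusted p = 0.143). Its 3 other probe sets differed by -0.02, 0.18 and -0.69, so that they did not share one direction. The last of them, 1431182_at, read 8.51 on WT DMSO replicate 2 and 5.35 to 6.54 on the other arrays. Over the 31 genes, 2 (Ier3 and Hspa8) had all KO arrays above all WT arrays and 2 (Dnaja1 and Hspe1) had all below, against 6.28% and 6.71% of all genes.

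Hsp90aa1, the inducible cytosolic Hsp90, differed by -0.11 (limma adjusted p = 0.760), and its dimmer probe sets by -0.55 and -0.40. Hsph1, an exchange factor for Hsp70, differed by -0.13 (limma adjusted p = 0.564). Dnajb1, the main inducible Hsp40 partner of Hsp70, differed by -0.16 (limma adjusted p = 0.640). Dnaja1, another Hsp40, read 10.18 and 9.93 in KO DMSO, 9.80 and 10.13 in KO TCDD, 10.45 and 10.23 in WT DMSO, and 10.33 and 10.36 in WT TCDD. Its KO arrays were all lower than its WT arrays, by a difference of -0.33 (SE 0.10, limma adjusted p = 0.113). The second probe set of Dnaja1, 1460179_at, did not overlap between genotypes either, at 7.50 to 8.24 in KO and 8.52 to 9.29 in WT, and its difference of -0.89 (SE 0.20) missed the threshold (limma adjusted p = 0.0549).

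Hspe1 and Hspd1 encode Hsp10 and Hsp60, the lid and the barrel of the mitochondrial chaperonin. They are neighbours on opposite strands. Among the 27 windows searched, 1 per gene, only that of Hspe1 holds an exact match to the 3-unit heat shock element. That element is GAANNTTC followed by NNGAA, on either strand. Inexact matches and other windows were not searched. The Hspe1 match is shown because Hspe1 is the gene of the set with a called probe set. That motif is in 0.4% of 27025 promoters, and the pair GAANNTTC lies within it.
Hspe1 element, GRCm38.p6 chr1:55088059-55088076, plus strand, with all bases in capitals: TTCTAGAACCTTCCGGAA
The run holds 4 alternating units and lies 89 to 72 bases before the Hspe1 start. RefSeq gives several starts for Hspd1. A start 216 bases from that of Hspe1 has the element between the genes, and so upstream of Hspd1 too. Another, 95 bases past the Hspe1 start, places the element within Hspd1, and its window was the one searched for Hspd1.

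Hspe1 was lower in KO by 1 of its 2 probe sets. Its brightest probe set, 1450668_s_at, read 9.34 and 8.78 in KO DMSO, 9.13 and 9.04 in KO TCDD, 9.84 and 10.29 in WT DMSO, and 9.47 and 9.81 in WT TCDD. All KO arrays were below all WT arrays, with means of 9.07 ± 0.23 and 9.85 ± 0.34 (SD, n = 4 each). The difference of -0.78 (SE 0.18) missed the threshold (limma adjusted p = 0.0580). The second probe set, 1422579_at, read 6.88 and 6.69 in KO DMSO, 6.45 and 6.35 in KO TCDD, 7.37 and 7.52 in WT DMSO, and 7.29 and 7.58 in WT TCDD. Again the genotypes did not overlap, with means of 6.59 ± 0.24 and 7.44 ± 0.13 (SD, n = 4 each). The difference of -0.85 (SE 0.13, 95% interval -1.14 to -0.56) passed (limma adjusted p = 0.0200). It was the only call among the 25 further probe sets of the 31 genes, of which 18 had the sign of their gene's brightest.

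The Hspe1 call ended when any of 4 arrays was left out. Each of these omissions also cut the share of all probe sets called, from 2.79% to between 0.482% and 0.557%. The loss was thus not particular to Hspe1. Leaving out KO TCDD replicate 1 gave -0.80 on the second probe set (limma adjusted p = 0.0668), and leaving out replicate 2 of that group gave -0.77 (adjusted p = 0.0598). Leaving out WT DMSO replicate 2 gave -0.82 (limma adjusted p = 0.0601), and WT TCDD replicate 2 gave -0.80 (adjusted p = 0.0629). Within the treatments it was -0.66 over the DMSO arrays and -1.04 over the TCDD arrays, with limma adjusted p-values of 0.685 and 0.181. Hspd1, its partner, did not follow. It read 10.25 and 9.77 in KO DMSO, 9.83 and 9.93 in KO TCDD, 10.05 and 10.09 in WT DMSO, and 9.30 and 10.71 in WT TCDD, overlapping throughout, with a difference of -0.09 (limma adjusted p = 0.885). Whether the 2 genes differ from each other in their change was not tested.

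**Figure D5:**
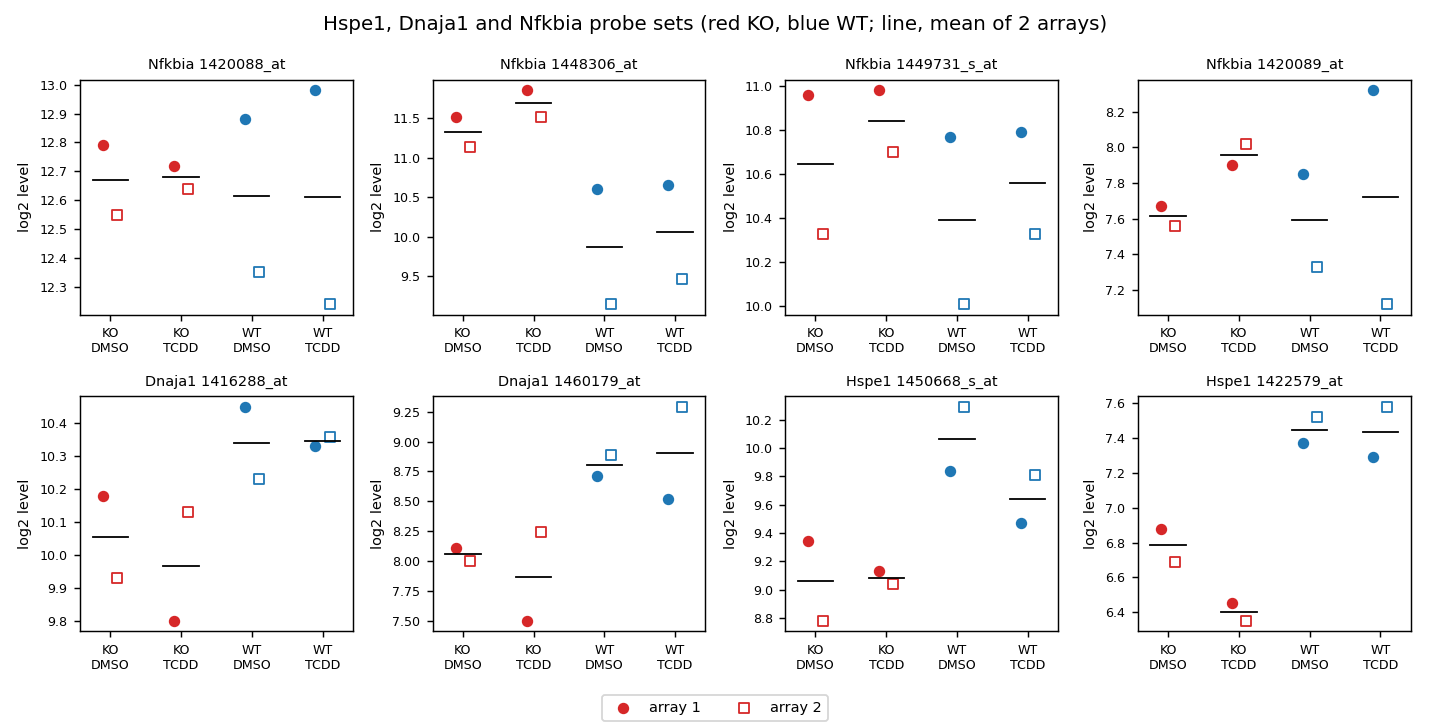
Log2 values of the 8 probe sets of Hspe1, Dnaja1 and Nfkbia by group, with each array as a point and the mean of the 2 arrays as a line. Both Hspe1 and both Dnaja1 probe sets have all KO arrays below all WT arrays, while of the 4 Nfkbia probe sets only 1448306_at separates the genotypes.

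No gene of the 31 passed between TCDD and DMSO in either genotype. In WT, 0 genes passed (limma, 0.00% of all probe sets called). By the brightest probe sets, 2 genes had an unadjusted p under 0.05, Hspa1a and Hspa1b, against 2.79% of all probe sets. Hspa1a went from 7.59 and 10.01 in WT DMSO to 5.94 and 6.40 in WT TCDD, a difference of -2.63 (SE 0.82, unadjusted p = 0.0169, limma adjusted p = 0.997). Hspa1b differed by -2.46 (unadjusted p = 0.0257, limma adjusted p = 0.997). On these probe sets the WT TCDD arrays of both genes lay below their WT DMSO arrays, but the size rested on WT DMSO replicate 2, without which the differences were -1.42 and -1.35. On the 2 other Hspa1b probe sets the groups overlapped, with differences of -2.29 and -2.55 (unadjusted p = 0.0793 and 0.0766, limma adjusted p = 0.997 for both). Dimmer probe sets of other members also had an unadjusted p under 0.05 in WT (limma adjusted p = 0.997 for each). In Hsp90aa1, 1426645_at differed by -0.74 (limma unadjusted p = 0.00599) and 1437497_a_at by -0.69 (0.0420). Klf6 probe set 1427742_a_at differed by -1.15 (0.0284) and Hspa8 probe set 1420622_a_at by -0.55 (0.0293). Gadd45b probe set 1420197_at went the other way, by 0.73 (0.0411). Over the 31 genes 26 differences were negative and 5 positive, with a median of -0.15. Over all 12393 genes 5322 were negative and 6978 positive, with a median of 0.03. The 31 differences come from the same 2 arrays a group, so they are not independent of each other.

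In KO, 0 genes passed (limma, 0.00% of all probe sets called). By the brightest probe sets 0 reached an unadjusted p under 0.05 (1.69% of all probe sets). The dimmer Hspe1 probe set, 1422579_at, did so in KO, at -0.39 (limma unadjusted p = 0.0345). The differences of Hspa1a and Hspa1b were 1.07 and 1.08 there, neither past the test, and the median of the 31 genes was 0.01. The TCDD effect in WT minus that in KO passed for 0 genes (limma, 0.00% of all probe sets called). At an unadjusted p under 0.05 the brightest probe sets again left Hspa1a at -3.70 and Hspa1b at -3.53 (2.78% of all probe sets, limma adjusted p = 0.998 for both). The dimmer Hsp90aa1 probe sets reached it too, 1437497_a_at at -1.21 (limma unadjusted p = 0.0180) and 1426645_at at -0.75 (0.0266). The other Hspa1b probe sets, at -3.04 and -2.79, did not (limma unadjusted p = 0.0951 and 0.150). The core of the xenobiotic response element that the Ah receptor binds, GCGTG on either strand, is in 28.2% of 27025 promoters of this length and in 13 of the 27 genes (48.1%). Neither Hspa1a nor Hspa1b is among the 13, and no match says only that these letters are not in this window.

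Other genes of both responses were counted from wider lists of known members. Of 65 further immediate early and growth factor response genes 59 were measured, and in KO against WT 0 were higher and 1 was lower (limma). That is 1.69% of the list, where 2.79% of all probe sets were called. The gene was Elk4, a partner of the serum response factor, with a KO mean of 9.75 ± 0.23 and a WT mean of 10.56 ± 0.13 (SD, n = 4 each), a difference of -0.81 (SE 0.12, limma adjusted p = 0.0217). Its call, too, ended without KO TCDD replicate 1 (-0.74, adjusted p = 0.0668), KO TCDD replicate 2 (-0.79, 0.0781), WT DMSO replicate 2 (-0.74, 0.0600) or WT TCDD replicate 2 (-0.81, 0.0631). Without any of these arrays only 0.482% to 0.557% of all probe sets were called. Klf10, a TGF-beta induced repressor, differed by -1.35 (limma adjusted p = 0.0981), and Bhlhe40, a repressor induced on T cell activation, by 1.18 (limma adjusted p = 0.259). The median of the list was 0.02.

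Of 51 further heat shock and chaperone genes 45 were measured and 0 passed between genotypes (limma). At an unadjusted p under 0.05 there were 12 (26.7%, against 20.5% of all probe sets), of which 9 were lower in KO (20.0%, against 11.3%). Cct4, a subunit of the cytosolic chaperonin CCT, had the smallest adjusted p of the list, with a difference of -0.61 (limma adjusted p = 0.0619). Dnajc3, a chaperone of the endoplasmic reticulum that also inhibits eIF2α kinases, differed by -1.18 (limma adjusted p = 0.0917). Chordc1, an Hsp90 partner, differed by -0.70 (limma adjusted p = 0.103), and Tcp1, another CCT subunit, by -0.48 (limma adjusted p = 0.135). The 3 with the higher mean in KO were Hspbp1 (0.30), Cdc37 (0.38) and Serpinh1 (0.35). All KO arrays lay below all WT arrays in 5 of the 45 genes (11.1%, against 6.71% of all genes) and above them in 2 (4.44%, against 6.28%). Hspa5, the Hsp70 of the endoplasmic reticulum, differed by -0.13, and the median of the list was -0.06.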

How the data were processed

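RNA of sorted CD4 T cells was hybridised to 8 Affymetrix arrays. The authors' deposited values are on the log2 scale, and RMA and affy are named in the submitters' processing notes, with no version given. The array number limits precision. The 64 control probe sets were left out of the tests. Of 22626 probe sets tested, 20380 carried 1 gene symbol in the platform annotation, 691 several and 1555 none; genes were named from the first kind only.

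KO and WT were compared over 4 arrays each with limma 3.58.1 (lmFit and eBayes) in R 4.3.3, pooling treatments as the series' design text does. TCDD contrasts and their difference came from a fit of 4 group means. Benjamini-Hochberg adjustment ran over all probe sets, and the fits were tested on simulated data. Replicates are labelled biological, each of 4 pooled animals. Arrays of a group correlated at 0.967 to 0.992, with at most 2.85% identical values.

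The members and lists were chosen with earlier results of these data known. All 31 members were named, and from the wider lists those that passed and examples chosen after their values were seen. Motifs were searched in RefSeq promoters (GRCm38.p6), 1 window per gene, and 27 members had an entry. Alternatives were the replicate block, normalization, centring, dim probe sets left out, moderation, array weights, probe set averages, treatment subsets, an actin covariate and leaving out arrays.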

Additional observations from a re-analysis of the deposited data

Results flagged for a closer look

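In 5 cases 1 of the 4 arrays of a genotype stood apart from the other 3 by Dixon's test, which chance does in about 1 in 20 groups. Over 31 genes in both genotypes a few such cases would arise by chance, and each group held DMSO and TCDD arrays. Ier5 read 10.22 on KO TCDD replicate 1, with the other KO arrays at 10.62 to 10.69. Hsph1 read 10.01 on KO DMSO replicate 2, with the other KO arrays at 10.38 to 10.44, and 10.60 on WT TCDD replicate 2, with the other WT arrays at 10.36 to 10.40. Btg2 read 11.62 on WT DMSO replicate 1, with the other WT arrays at 10.11 to 10.19. Hspa8 read 12.40 on WT TCDD replicate 2, with the other WT arrays at 12.67 to 12.69.

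The TCDD difference of Hspa1a had opposite signs in the 2 genotypes, at -2.63 in WT and 1.07 in KO. Both WT TCDD arrays (5.94 and 6.40) lay below both WT DMSO arrays (7.59 and 10.01). In KO both TCDD arrays (6.85 and 7.32) lay above both DMSO arrays (6.79 and 5.24), though 6.85 and 6.79 nearly met. The arrays of the 2 treatments are not pairs. The TCDD difference in WT minus that in KO, -3.70, did not pass (limma adjusted p = 0.998).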

How the results depend on the processing

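The count of genes called between KO and WT, 0 of 31, was unchanged with the replicate block, median centring, trended robust moderation and 4 group means. These fits called 3.54%, 2.47%, 2.32% and 0.712% of all probe sets. At such shares a count of 0 among 31 genes does not show stability. The count was also 0 over either treatment alone and without both WT arrays numbered 2. There 0.00%, 0.00% and 0.124% of all probe sets were called, so those counts say nothing about stability. It was 1 under another quantile normalization (Hspe1), where 4.35% of all probe sets were called, against 2.79% in the main fit. It was 1 with dim probe sets left out (Hspe1, -0.78, limma adjusted p = 0.0378), where 7.81% were called. It was 2 with array weights (Hspa8 and Hspe1, 7.09% called) and 2 with the actin covariate (Atf3 and Hspe1, 8.11% called). With the mean of a gene's probe sets it was 2 (Dnaja1 and Hspe1), where 4.21% of all genes were called. When 1 array was left out it was 0 to 1, with 0.482% to 2.95% of all probe sets called (Ppp1r15a without WT DMSO replicate 1, Hspe1 without WT TCDD replicate 1). The counts of all TCDD comparisons stayed 0 under every alternative run on them. Each of these called 0.00% of all probe sets or genes, so those counts say nothing about stability either. The replicate numbers were not taken to pair the samples over all groups: the differences of replicate 2 minus 1 correlated between groups from -0.29 to 0.22, except between WT DMSO and WT TCDD, at 0.63, where the number does go with a shared deviation. With the replicate block the second Hspe1 probe set stayed called (limma adjusted p = 0.0272) and the second probe sets of Dnaja1 (0.0360) and Nfkbia (0.0200) became so.

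Signs turned in genes with small or array-bound differences, and the cause was not tested. Over DMSO arrays Fos was -0.13, Junb 0.04, Zfp36 0.03, Btg2 -0.37 and Socs3 -0.09. Over TCDD arrays Jun was 0.15, Dusp2 0.07, Hspa1a 0.92 and Hspa1b 0.28. With the actin covariate Dusp2 was 0.01. Under another quantile normalization Fos was -0.01, Dusp2 0.06, Zfp36 0.05 and Nfkbia -0.05. With array weights Fos was -0.13, Fosb -0.15, Dusp2 0.01, Nr4a1 0.00 (just below 0), Klf6 -0.12, Btg2 -0.07 and Nfkbia -0.02. With the mean of probe sets Jun was 0.02, Hspa8 -0.06 and Dnajb1 0.01. Without both WT arrays numbered 2, Fosb was -0.21, Fosl2 -0.07, Jun 0.11, Dusp2 0.34, Zfp36 0.14, Nr4a1 -0.23, Klf6 -0.24, Btg2 -0.17, Hsp90aa1 0.08, Dnajb1 0.08, Hspd1 0.27, Nfkbia -0.26 (1449731_s_at -0.04, 1420089_at -0.30) and Socs3 -0.17. When 1 array was left out the ranges that crossed 0 were -0.39 to 0.25 for Fos, -0.09 to 0.33 for Fosb, -0.02 to 0.06 for Fosl2, -0.50 to 0.00 for Jun, -0.29 to 0.06 for Junb, -0.02 to 0.60 for Klf6, -0.31 to 0.08 for Dusp1, -0.24 to 0.19 for Dusp2, -0.30 to 0.12 for Zfp36, -0.06 to 0.19 for Nfkbia (1420089_at -0.05 to 0.35), -0.10 to 0.21 for Socs3 and -0.34 to 0.13 for Hspd1.

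With 2 arrays a group, a TCDD difference in a gene as variable as Hspa1a has wide error, and a p that misses the threshold does not show equal levels.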

Other observations

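Among the 59 measured genes of the wider immediate early list, 16 (27.1%) had both WT arrays numbered 2 below the 6 other arrays, against 11.7% of all genes. Of these, Nr4a2, a relative of Nr4a1, read 4.48 and 4.62 on WT DMSO replicate 2 and WT TCDD replicate 2 and 5.23 to 6.60 on the 6 other arrays. Bhlhe40, also among the 16, read 6.47 and 6.73 on those WT arrays and 8.36 to 9.07 on the others. Myc, by contrast, was highest on WT DMSO replicate 2 at 7.41 with a KO mean of 5.76 ± 0.24 and a WT mean of 6.62 ± 0.59 (SD, n = 4 each), a difference of -0.86 that did not pass (limma adjusted p = 0.123). Hsp90b1, the Hsp90 of the endoplasmic reticulum, read 9.07 on both WT arrays numbered 2 and 7.12 to 8.34 on the others.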
